A study of Mus musculus with 4 samples.

Results

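The BCL2 family decides whether the outer membrane of a cell's mitochondria stays intact or is made permeable. The genes described here are 10 members active in thymocytes: the anti-apoptotic Bcl2, Bcl2l1 (BCL-XL) and Mcl1, the BH3-only death genes Bcl2l11 (BIM), Bbc3 (PUMA), Pmaip1 (NOXA), Bid and Bad, and the effectors Bax and Bak1. They were chosen by name, and every probe set to which the platform annotation gave 1 such symbol alone was used: 29 probe sets of 9 of the 10 genes, out of 45037 probe sets and 18193 named genes in all. Bax had no probe set named by that annotation and is not analysed here. Of the 29 probe sets, 26 from 8 genes were bright enough to be tested. The others, described separately, were the single probe set of Pmaip1 and 1 each of Bcl2l1 and Bak1.

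The study profiled unsorted thymocytes by hybridising total RNA to Affymetrix arrays, 1 per animal. The groups were mice hypomorphic for Atg16l1, an allele that leaves this autophagy gene with reduced function, and control mice, called wild-type in the sample descriptions, with 2 arrays each. All 4 animals were 7 weeks old and independent of each other, each group held 1 male and 1 female, and the labels name neither the strain nor the sex of an array, nor how the allele was made. The 2 arrays of a group thus differ in sex as well as in animal, and these cannot be told apart. Whether the replicates of a group shared a litter is not given, and 2 arrays per group limit the precision of every value. In bulk RNA, fewer cells of a type and less RNA per cell cannot be told apart.

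As background, anti-apoptotic members hold the effectors BAX and BAK in check, BH3-only proteins release that hold when a cell is damaged or starved of survival signals, and active BAX and BAK let cytochrome c out of the mitochondria to start the caspases. In the thymus, BCL-XL and MCL1 keep double-positive thymocytes alive, BCL2 is prominent in the stages before and after them, and BIM carries out the deletion of self-reactive thymocytes with help from PUMA. ATG16L1 directs LC3 lipidation at the growing autophagosome.

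The arrays were about equally correlated with each other but differed in brightness, and RNA and array quality were not examined. Median deposited signals lay between 23.5 and 38.4, and log2 values correlated at r = 0.951 to 0.954 between arrays, within and across groups alike. Signals below are scaled to a common median, with array factors of 0.762 to 1.2, and log2 changes are of log2(signal + 2.29), which understates the change of dim genes. Atg16l1, the gene altered, was lower in hypomorph thymocytes on its brighter probe set, with scaled signals of 82.4 and 74.0 in hypomorph arrays, against 221 and 252 in control arrays (log2 change -1.57 ± 0.18 SE, adjusted p 0.0142 in limma). The call was lost without centring (adjusted p 0.114), without the filter (0.0596), without the variance trend (0.274), without control replicate 1 (0.0751) and without control replicate 2 (0.0893), while the log2 change stayed between -1.77 and -1.25 over the 15 alternatives that tested it. Its other probe set was too dim to be tested. Over the 10235 tested genes the median log2 change was 0.21 with the arrays centred on their medians. Other scalings put it between 0.01 and 0.54, so changes are also given relative to it. Of thymocyte markers, 7 of 8 were named on the array and all 7 were tested, with Cd3e between 1197 and 1574 and Cd8a between 3472 and 4432 in scaled signal over the 4 arrays.

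No BCL2 family probe set changed beyond the threshold. Of the 26 tested, 0 had an adjusted p under 0.05 in limma, where 14 of 22519 (0.0622%) did over the whole table, 0.0488% higher and 0.0133% lower, and the adjusted p-values of the 26 ran from 0.243 to 0.986. At an unadjusted p under 0.05, 4 were higher, 1 each of Bbc3, Mcl1, Bid and Bad, and 1 of Bcl2 was lower. Over all tested probe sets 14.9% were higher and 1.19% lower by that rule. The 4 higher ones depended on the scaling: under quantile normalization 0 members were higher and 1 was lower, against 3.15% and 3.76% of all tested probe sets. Both hypomorph arrays lay above both control arrays in 13 of the 26 and below them in 1, against 43.8% and 7.04% of all tested probe sets. The median log2 change of the 8 genes, each by its brightest tested probe set, was 0.23, or 0.02 above the tested genes, with 5 above and 3 below that median.

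**Figure D1:**
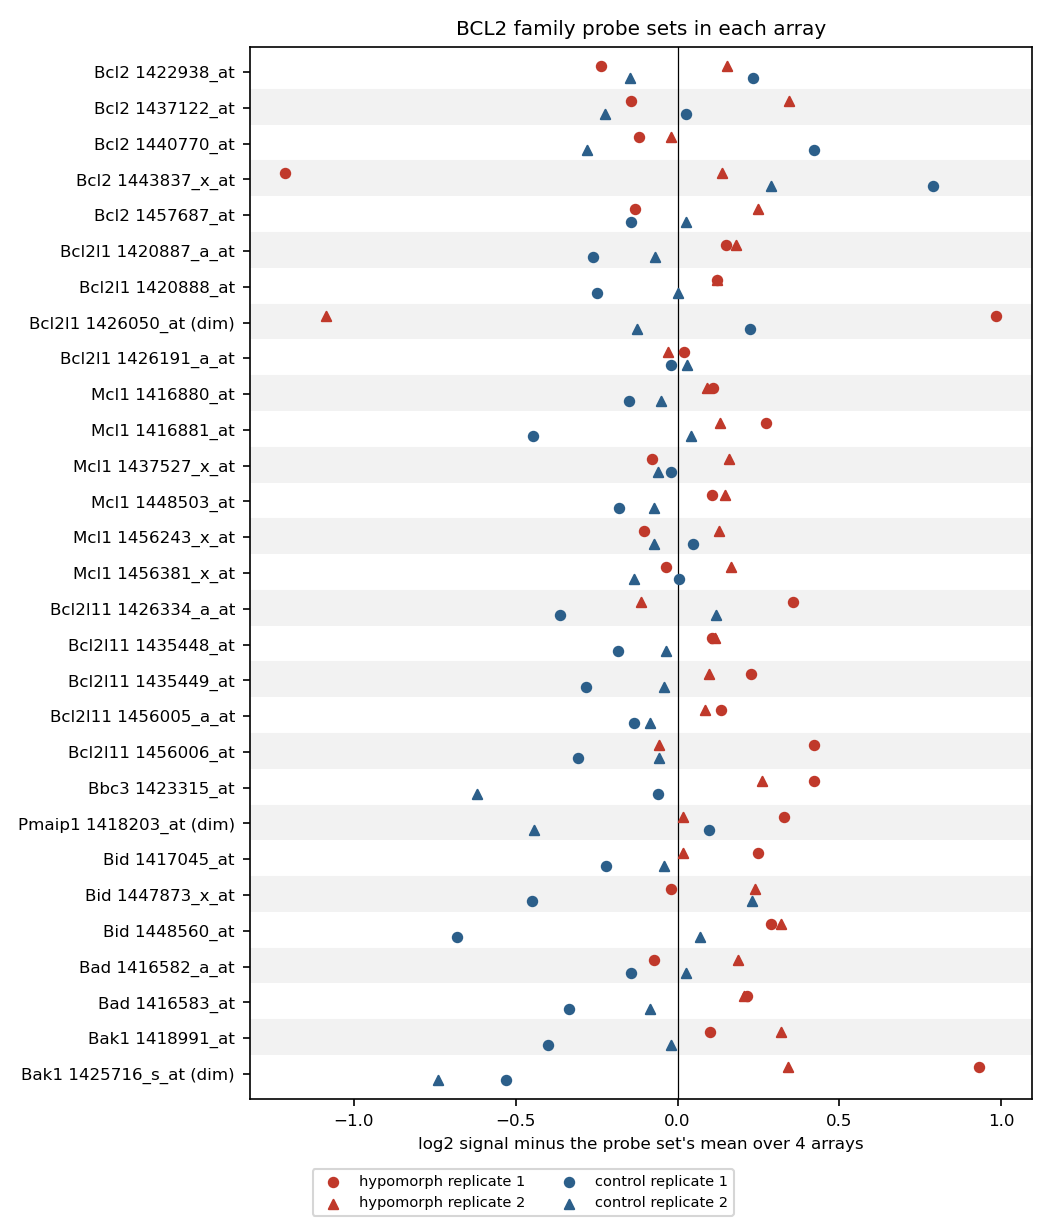
Log2 signal of each of the 29 BCL2 family probe sets in each of the 4 arrays, minus the probe set's mean over the arrays (horizontal axis, centred arrays); hypomorph arrays are red, control arrays blue, circles replicate 1 and triangles replicate 2. Control replicate 1 is the lowest array in 17 of the 26 tested probe sets. Among the tested ones, the Bcl2 probe set 1443837_x_at stands apart through hypomorph replicate 1.

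One array lay at the low end of most of these probe sets. Control replicate 1 was the lowest of the 4 arrays in 17 of the 26, against 48.8% of all tested probe sets, and hypomorph replicate 2 was the highest in 13, against 44.4%. The members thus shared in a difference between arrays that ran through the whole table, and its part in any one gene's value was not tested.

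Of the anti-apoptotic genes, Bcl2l1 had log2 changes of 0.24 and 0.33 on the pair of brighter probe sets. This gene encodes BCL-XL, which supports double-positive thymocytes. Probe set 1420888_at had scaled signals of 516 and 515 in hypomorph arrays, against 399 and 477 in control arrays. Hypomorph arrays were both above control arrays, by a log2 change of 0.24 ± 0.14 (SE, adjusted p 0.403 in limma), which is 0.03 above the tested genes. Probe set 1420887_a_at had 152 and 154 in hypomorph arrays, against 112 and 129 in control arrays (log2 change 0.33 ± 0.18, adjusted p 0.367). The third tested probe set, 1426191_a_at, lay within 67.0 to 70.4 on all 4 arrays, with overlapping groups and a log2 change of -0.01 ± 0.23. A dim one, 1426050_at, had 26.9 and 4.42 in hypomorph arrays, against 14.1 and 10.9 in control arrays, and was not tested.

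Mcl1, whose short-lived protein is needed by thymocytes at nearly every stage, was covered by 6 tested probe sets, all bright and all with a log2 change above 0 on median-centred arrays. Under quantile normalization the 3 whose names end in _x_at were below 0. The suffix _x_at marks probe sets of which some probes also match other transcripts, and the 3 of this kind had changes of 0.02 to 0.13, with overlapping groups. The other 3, 1416880_at, 1448503_at and 1416881_at, had changes of 0.20, 0.26 and 0.41, and in each both hypomorph arrays lay above both control arrays. The order of these kinds was not kept when an array was left out: without control replicate 1, 1456381_x_at was at 0.20 and 1416880_at and 1416881_at were at 0.15 and 0.16. Over all tested probe sets the medians were 0.19 for names ending in _x_at and 0.17 for those ending in _at alone. Probe set 1448503_at had scaled signals of 2869 and 2962 in hypomorph arrays, against 2351 and 2532 in control arrays (log2 change 0.26 ± 0.14 SE, adjusted p 0.355 in limma). Probe set 1416881_at had 622 and 567 in hypomorph arrays, against 376 and 530 in control arrays (log2 change 0.41 ± 0.17, adjusted p 0.290). Leaving out control replicate 1 gave 1416881_at a log2 change of 0.16, and leaving out control replicate 2 gave 0.65. Relative to the tested genes the 6 ran from -0.19 to 0.20, 2 of them above that median.

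Bcl2, the founding survival gene of the family, had 5 tested probe sets, each with a change below that of the median tested gene, and 4 of them with overlapping groups. The 4 had log2 changes of -0.14 to 0.20, and their mean log2 signal was 7.72 in hypomorph arrays and 7.70 in control arrays. The brightest, 1457687_at, had scaled signals of 281 and 364 in hypomorph arrays, against 277 and 313 in control arrays (log2 change 0.12 ± 0.17 SE, adjusted p 0.734 in limma). Its low value of each group was nearly the same, so the groups overlapped.

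The fifth Bcl2 probe set, 1443837_x_at, went another way. It had scaled signals of 123 and 316 in hypomorph arrays, against 498 and 353 in control arrays. Both hypomorph arrays were below both control arrays, but the distance came mainly from hypomorph replicate 1, and hypomorph replicate 2 was close to control replicate 2. The log2 change was -1.08 ± 0.34 (SE, adjusted p 0.244 in limma), the lowest of the 26. Without hypomorph replicate 1 it was -0.30 (adjusted p 0.800), and without hypomorph replicate 2 it was -1.75 with an adjusted p of 0.00057, the only setting in which any member was called. Without control replicate 1 it was -0.83 and without control replicate 2 it was -1.33. In a fit with 1 array left in a group, that array is assumed to vary as the other group does. Such a fit also sets 1 sex in that group against both sexes in the other. In the RefSeq gene order, Bcl2 lies on chromosome 1, as Atg16l1 does, 88 places away among the genes named on the array.

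**Figure D2:**
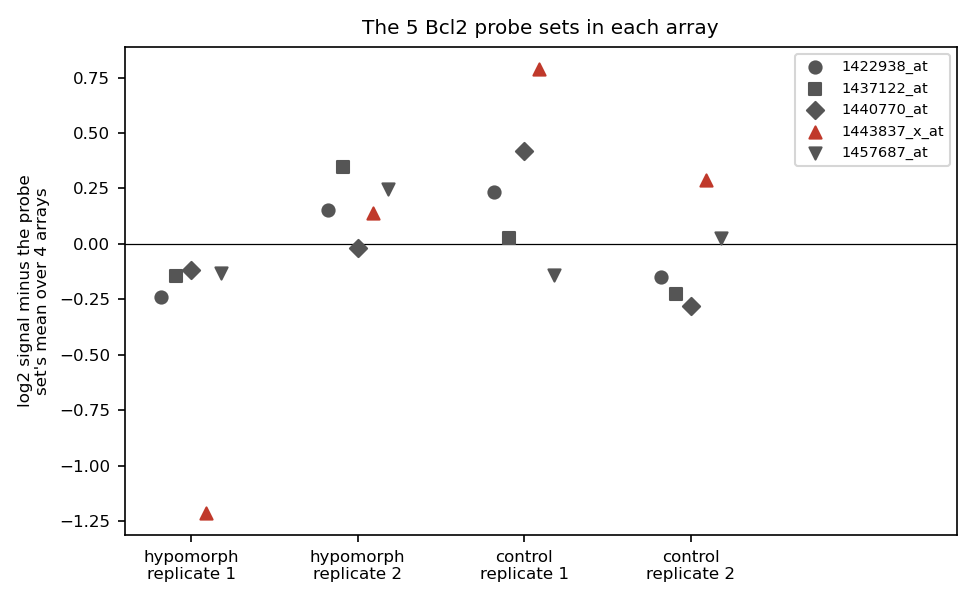
Log2 signal of the 5 Bcl2 probe sets in each array, minus each probe set's mean over the 4 arrays (vertical axis, centred arrays), with 1443837_x_at in red and the other 4 in grey. The red points span far more than the grey ones, with hypomorph replicate 1 at the bottom and control replicate 1 at the top.

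Among the BH3-only genes, Bbc3 had the highest change of the 26 tested probe sets. Its protein, PUMA, binds every anti-apoptotic family member and is induced by p53 and by loss of growth factors. Its single probe set, 1423315_at, had scaled signals of 205 and 182 in hypomorph arrays, against 146 and 98.0 in control arrays. Both hypomorph arrays were above both control arrays, and the control arrays differed from each other by more than the hypomorph arrays did. The mean log2 signal was 7.61 ± 0.11 in hypomorph arrays and 6.93 ± 0.40 in control arrays (SD, n = 2 each), a log2 change of 0.68 ± 0.21 (SE), or 1.6-fold (95% confidence interval 1.16 to 2.21-fold). The adjusted p in limma was 0.243. The change was 0.47 above the tested genes and 0.49 above probe sets of like signal, and 97.7% of tested genes had a smaller one. Without control replicate 2 the log2 change was 0.40, with the median of the tested genes at 0.26. Without hypomorph replicate 1 it was 0.70, with that median at 0.36. In these fits Bbc3 was not the highest member, as Bid 1448560_at was at 0.98 and 0.72. Without control replicate 1 Bbc3 was at 0.96 and without hypomorph replicate 2 at 0.76, with medians of 0.16 and 0.17. Over the 16 alternatives tried, the change stayed between 0.40 and 1.01 and the adjusted p between 0.13 and 0.798.

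Bcl2l11 had 5 tested probe sets with closely similar changes. Its protein, BIM, is the main killer of thymocytes in negative selection and after cytokine loss. Probe set 1456005_a_at had scaled signals of 1486 and 1437 in hypomorph arrays, against 1230 and 1276 in control arrays. Both hypomorph arrays lay above both control arrays, by a log2 change of 0.22 ± 0.13 (SE, adjusted p 0.389 in limma). Probe set 1435449_at had 387 and 353 in hypomorph arrays, against 271 and 318 in control arrays (log2 change 0.33 ± 0.15, adjusted p 0.311). Over all 5 the changes ran from 0.22 to 0.37, in 3 of them without overlap, and each lay 0.01 to 0.16 above the median of the tested genes. The Bcl2l11 values thus differed little from the shift of the whole table.

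BIM and PUMA are the members best known as targets of FOXO transcription factors, which act when survival signalling is low. Of their promoter windows, only those with a match to a FOXO motif are shown, and their other windows held none. RefSeq promoter windows (GRCm38.p6, the reference strain, 250 bases before a start site) were at hand for 9 of the 10 members, all but Pmaip1. These were 15 windows in all. The FOXO core motif GTAAACA, or TGTTTAC on the other strand, occurred in 2 of them, 1 of Bcl2l11 and 1 of Bbc3, and in 3.17% of 32851 windows of that length over all genes. The Bcl2l11 window is chr2:128125788-128126037 and the Bbc3 window chr7:16310011-16310260, both on the plus strand, with the motif in capitals.
Bcl2l11: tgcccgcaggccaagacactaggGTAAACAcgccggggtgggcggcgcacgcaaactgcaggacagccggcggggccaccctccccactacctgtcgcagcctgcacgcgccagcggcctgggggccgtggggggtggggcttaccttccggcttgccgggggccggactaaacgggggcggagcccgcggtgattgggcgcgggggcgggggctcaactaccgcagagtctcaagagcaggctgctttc
Bbc3: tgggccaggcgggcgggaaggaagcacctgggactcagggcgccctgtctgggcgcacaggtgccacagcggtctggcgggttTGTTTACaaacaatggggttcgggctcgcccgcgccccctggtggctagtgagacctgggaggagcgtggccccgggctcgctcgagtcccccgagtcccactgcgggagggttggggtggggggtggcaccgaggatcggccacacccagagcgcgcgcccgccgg
The motif begins 227 bases before the start in Bcl2l11 and 167 before it in Bbc3. The p53 half-site consensus occurred in 1 member window, that of Bax, and in 7.13% of all windows. Sequence outside these windows was not searched, so a site there would be missed. These are matches of letters, not measured binding. Foxo1 and Foxo3, named here because of the motif after their values were seen, had log2 changes of 0.17 and 0.05 (adjusted p 0.548 and 0.890 in limma), both below the median of the tested genes.

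Bid and Bad had mixed probe sets. Bid links death receptors to mitochondria once caspase-8 has cut it, and its brightest probe set, 1417045_at, had scaled signals of 434 and 369 in hypomorph arrays, against 313 and 354 in control arrays (log2 change 0.26 ± 0.15 SE, adjusted p 0.385 in limma). Probe set 1448560_at had 104 and 105 in hypomorph arrays, against 51.2 and 88.3 in control arrays (log2 change 0.61 ± 0.27, adjusted p 0.30). There control replicate 1 was low, and the change was 0.40 above the tested genes. Without control replicate 1 the log2 change was 0.23, and without control replicate 2 it was 0.98. The third, 1447873_x_at, overlapped between groups at a change of 0.22.

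Bad, which is kept inactive by AKT phosphorylation while survival signals last, had scaled signals on 1416583_at of 147 and 145 in hypomorph arrays, against 98.3 and 118 in control arrays. These groups did not overlap (log2 change 0.42 ± 0.19 SE, adjusted p 0.306 in limma). Its brighter probe set, 1416582_a_at, had 179 and 213 in hypomorph arrays, against 168 and 190 in control arrays, with overlapping groups (log2 change 0.12 ± 0.17, adjusted p 0.740). The pair of Bad probe sets thus lay on opposite sides of the median of the tested genes, at 0.21 above and 0.09 below it.

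Pmaip1, whose protein NOXA binds mainly MCL1, was dimmer than the filter allowed. Its scaled signals were 32.9 and 25.7 in hypomorph arrays, against 26.8 and 18 in control arrays, and the groups overlapped. In the fit without the filter its log2 change was 0.35 ± 0.44 (SE, adjusted p 0.806 in limma).

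Of the effectors, Bak1 was measured by 1 tested and 1 dim probe set. BAK sits on mitochondria and forms the pore with BAX. Probe set 1418991_at had scaled signals of 154 and 179 in hypomorph arrays, against 107 and 140 in control arrays, without overlap (log2 change 0.42 ± 0.20 SE, adjusted p 0.316 in limma). This was 0.21 above the tested genes, of which 86.5% had a smaller change. Without control replicate 1 the log2 change was 0.24, and without hypomorph replicate 1 it was 0.64. The dim probe set, 1425716_s_at, had 44.7 and 28.4 in hypomorph arrays, against 14.2 and 12.3 in control arrays. Without the filter its log2 change was 1.26 ± 0.47 (adjusted p 0.423). Both Bak1 probe sets were thus higher in every hypomorph array than in any control array, as 43.8% of tested probe sets were. The dim one was outside the main test, and neither had an adjusted p under 0.05 in limma.

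**Figure D3:**
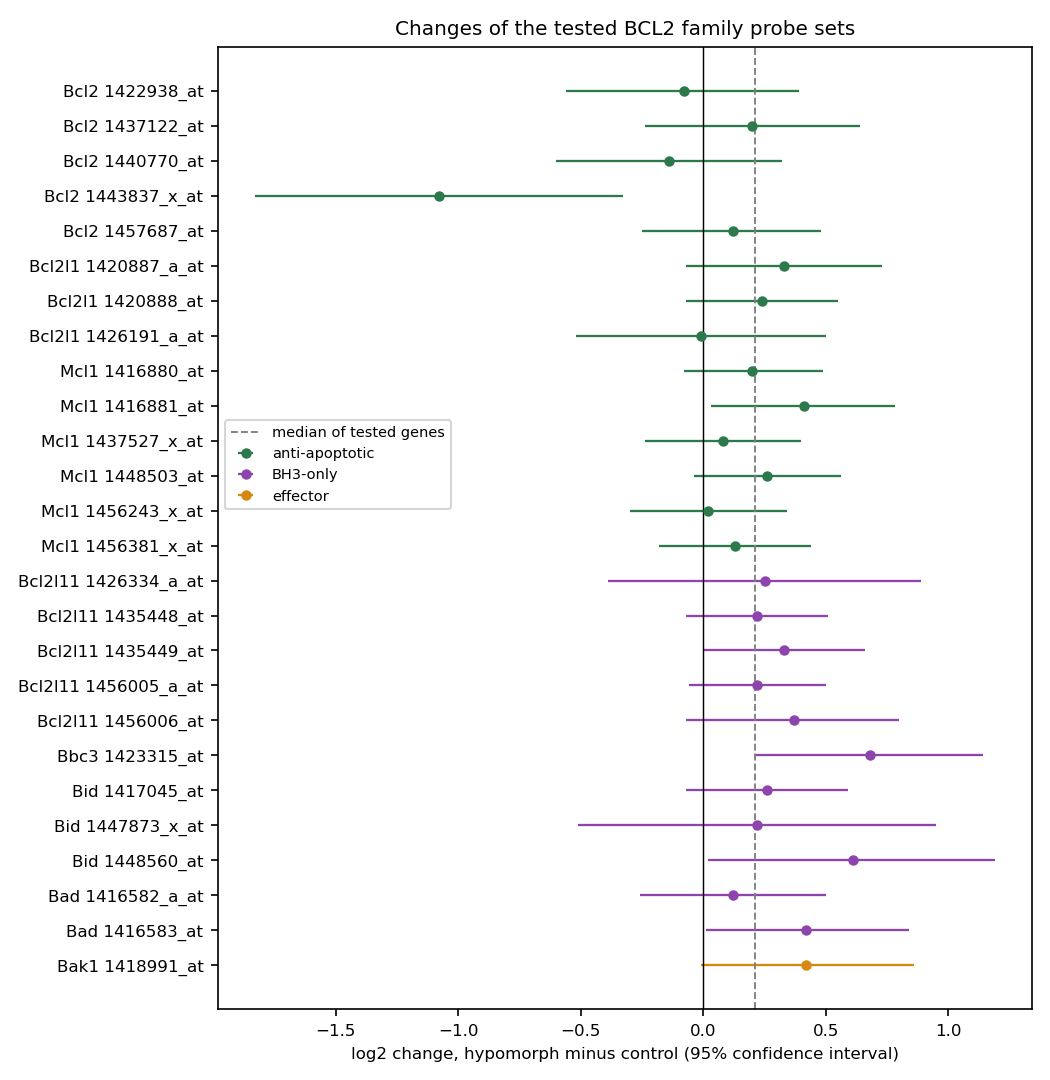
Log2 change, hypomorph minus control, of the 26 tested BCL2 family probe sets (points) with 95% confidence intervals from limma (bars), coloured by role; the solid line marks 0 and the dashed line the median of the tested genes, 0.21. The intervals of Bbc3, Mcl1 1416881_at, Bid 1448560_at and Bad 1416583_at lie to the right of 0 and that of Bcl2 1443837_x_at to the left.

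By role, the 14 tested probe sets of the anti-apoptotic genes had a median log2 change of 0.12 (4 above the median of the tested genes), and the 11 of the BH3-only genes one of 0.26 (10 above it), where 44.8% of all tested probe sets lay above it. Of the 11, 5 belong to Bcl2l11, and Bcl2l11 1435448_at and 1456005_a_at and Bid 1447873_x_at lay only 0.01 above that median. Without hypomorph replicate 1 the median of the tested genes was 0.36. The Bcl2l11 probe sets were then at 0.11 to 0.36, Bid at 0.25, 0.45 and 0.72, Bad at 0.35 and 0.52, and Bbc3 at 0.70. The anti-apoptotic ones ran from -0.30 to 0.55 in that fit. Counted once per gene, 1 of 3 anti-apoptotic genes and 3 of 4 BH3-only genes lay above the median of the tested genes. Their medians were -0.09 and 0.03 relative to the tested genes. Mcl1 was counted by its brightest probe set, 1437527_x_at, at -0.13 relative to the tested genes. Its probe set 1448503_at was at 0.05, so the count depends on the probe set chosen. Probe sets of a gene share a target, so their values are not independent, and the difference between roles was not tested. For the brightest probe set of each gene, the 95% confidence interval of the hypomorph-to-control ratio was 0.848 to 1.32 for Mcl1, 0.841 to 1.40 for Bcl2, 0.950 to 1.46 for Bcl2l1, 0.959 to 1.42 for Bcl2l11, 0.955 to 1.51 for Bid, 0.834 to 1.41 for Bad and 0.993 to 1.81 for Bak1. On median-centred arrays, a change of 2-fold in either direction lay outside all 7 of these intervals, which are not adjusted for multiple tests, and a 2-fold increase lay inside that of Bbc3. Other probe sets of these genes did not bound the change so closely: a 2-fold decrease lay inside the interval of Bcl2 1443837_x_at (0.282 to 0.794), and a 2-fold increase inside those of Bid 1448560_at (1.02 to 2.29) and of the dim Bak1 1425716_s_at (1.14 to 5.05). Both lay inside that of the dim Bcl2l1 1426050_at (0.289 to 3.02).

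**Figure D4:**
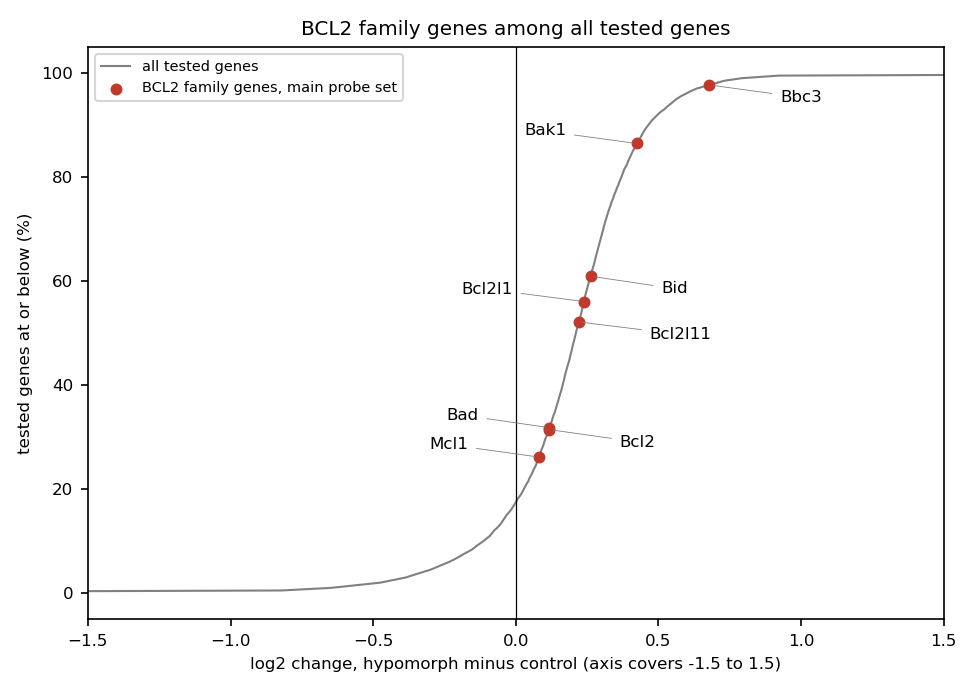
Share of the 10235 tested genes at or below each log2 change, hypomorph minus control (grey line, in percent), with the 8 tested BCL2 family genes marked by their brightest tested probe set. The genes spread over the range from Mcl1, above 26.1% of tested genes, to Bbc3, above 97.7%.

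The rest of the family and its pathway had no called gene either. Over the whole table only 0.0622% of tested probe sets were called, so 0 called in lists of this size says little about them. Of 16 other BCL2 family genes listed, 11 were named on the array and 5 tested, with 0 called, 1 higher at an unadjusted p under 0.05 (18.2% of tested genes were) and a median of -0.11 relative to the tested genes. Bmf, a BH3-only gene released from the cytoskeleton under stress, had scaled signals of 630 and 524 in hypomorph arrays, against 441 and 476 in control arrays (log2 change 0.32, adjusted p 0.305 in limma). Bcl2l12, Bcl2l13 and the mitophagy gene Bnip3 were at 0.40, 0.10 and 0.07 (adjusted p 0.354 to 0.907). Of 20 genes of the mitochondrial death machinery, 18 were tested, 0 called and 10 above the median, with a median of 0.02 relative to it. In 12 of the 18 both hypomorph arrays lay above both control arrays, as in 51.7% of tested genes. The outer membrane channel gene Vdac3 had 1469 and 1609 in hypomorph arrays, against 1109 and 1173 in control arrays (log2 change 0.43, adjusted p 0.242), followed by Mtch2, a receptor for cut BID, at 0.38, and by Aifm1 and Dffa at 0.32 and 0.30.

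Genes that control the family gave a like picture. Of 34 listed, 27 were tested, 0 called, 4 were higher at an unadjusted p under 0.05 (18.2% of tested genes were) and 14 lay above the median of the tested genes. Akt1, the kinase that inactivates BAD and FOXO proteins, had scaled signals of 610 and 662 in hypomorph arrays, against 408 and 455 in control arrays (log2 change 0.56 ± 0.14 SE, adjusted p 0.197 in limma). Usp9x, a deubiquitinase that stabilises MCL1, was at 0.45, Stat5b, which carries interleukin-7 signals, at 0.46, and the glucocorticoid receptor gene Nr3c1 at 0.37 (adjusted p 0.255 to 0.287). Of 10 death receptor genes 8 were tested, 0 called and 3 above the median, with Fas at 0.37, Casp8 at 0.30, Tradd at 0.23 and Cflar, which encodes the caspase-8 brake c-FLIP, at 0.14 (adjusted p 0.306 to 0.638).

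The mix of cells and of stages bears on where these genes are expressed. Those lists had 0 called genes too, which says as little at the low share called over the whole table. Relative to the tested genes, genes of double-negative thymocytes had a median of -0.41 (1 of 10 above), of double-positive thymocytes -0.12 (3 of 11 above) and of single-positive thymocytes -0.15 (3 of 10 above). Of the first, Kit, Hhex, Lmo2 and Hes1 had log2 changes of 0.77, -0.60, -0.62 and -0.39 (adjusted p 0.291 to 0.574 in limma). These genes were dim, with scaled signals of 22.5 to 67.7 over the arrays. Whether the list reflects that stage alone, rather than other cells too, was not tested. Of the second, Cd4, Rag2, Ptcra and Arpp21 were at 0.37, 0.28, 0.25 and -0.14 (0.290 to 0.607), and of the third Cd69, Il7r, Ccr7 and Ccr9 at 0.32, 0.24, 0.32 and -0.22 (0.284 to 0.470). The mitosis list stood at 0.46, with 11 of 11 above the median and 11 higher at an unadjusted p under 0.05, among them Bub1b, Cenpf, Bub1 and Birc5 (log2 changes 0.79, 0.73, 0.70 and 0.70, adjusted p 0.125 to 0.147). Birc5 encodes survivin, an inhibitor-of-apoptosis family protein that also acts in cell division.

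Markers of other cells lay on both sides of the median. B cell markers were at -0.65 (1 of 6 above, 2 lower at an unadjusted p under 0.05, as 0.889% of tested genes were), with a log2 summed level of 8.80 and 8.86 in hypomorph arrays, against 9.09 and 9.39 in control arrays, and Ms4a1, Cd79a, Cd22 and Cd79b had the smallest p-values (log2 changes -0.63, -0.63, -0.48 and -0.39, adjusted p 0.244 to 0.382 in limma). Macrophage markers were at -0.64 (0 of 6 above), summed at 9.12 and 8.40 in hypomorph arrays, against 9.25 and 9.0 in control arrays, led by Csf1r, C1qa, C1qc and C1qb. Dendritic cell markers were at -0.39 (0 of 7 above), summed at 11.42 and 11.48 in hypomorph arrays, against 11.80 and 11.62 in control arrays, led by Cd74, Ccl17, H2-Aa and H2-Ab1. That sum mostly follows Cd74 and H2-Aa, with scaled signals of 1043 to 1415 over the arrays. Whether it reflects dendritic cells alone was not tested. Granulocyte markers, at 0.28 (5 of 6 above), were summed at 11.09 and 11.85 in hypomorph arrays, against 9.35 and 12.49 in control arrays. S100a8, S100a9, Ltf and Camp were each lowest in control replicate 1, the array lowest for most BCL2 family probe sets. Of thymic epithelial markers 4 of 8 were tested and Foxn1, Psmb11, Krt8 and Aire were too dim (median 0.14; Krt5, Prss16, Ccl25 and Epcam at -0.57, 0.52, 0.37 and 0.33), and of 6 erythroid markers only Hemgn was tested (log2 change 0.19). Under quantile normalization and cyclic loess the medians of B cell and macrophage markers relative to the tested genes were -0.62 to -0.60 and those of mitosis genes 0.41 and 0.42, while those of the BCL2 family members, of the mitochondrial death machinery and of the regulators were -0.03 to -0.01, below the median tested gene. The median of double-positive genes was -0.02 under quantile normalization and -0.09 under cyclic loess, and that of the other BCL2 family genes -0.02 and -0.03. The part of any of these cells in the BCL2 family values was not tested.

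**Figure D5:**
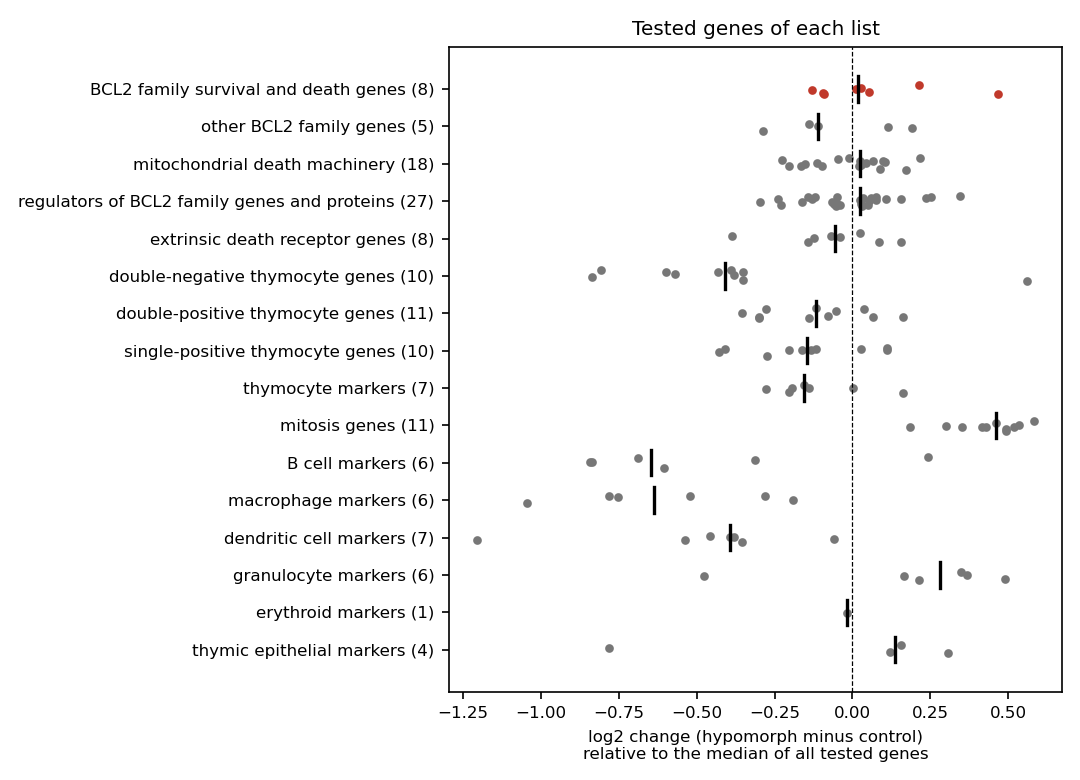
Log2 change, hypomorph minus control, relative to the median of all tested genes (horizontal axis) for each tested gene of each list (points; number of genes in brackets), with the list's median as a black bar and the BCL2 family genes in red. On median-centred arrays the family and its pathway lists centre near 0, with medians of -0.11 to 0.02, while mitosis genes lie at 0.46 and B cell and macrophage markers at -0.65 and -0.64.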

How the data were processed

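The deposited values are probe set intensity values on a linear scale, which the authors made with GCOS, per the submitters' processing notes. The sources used here do not state the version or settings of this Affymetrix program. Of 45101 probe sets, 64 controls were left out, and 34945 of the 45037 others had 1 symbol in GEO's platform annotation.

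Signals were analysed as log2(signal + 2.29), where 2.29 is their 10th percentile. Array medians spanned 0.66 (log2), above the limit of 0.3 set for scaling, so arrays were centred on a common median. Probe sets with a mean centred log2 value at or above the median over all of them (22519) were tested with limma 3.58.1 in R 4.3.3 (lmFit, eBayes with trend, two-sided, no covariates), with Benjamini-Hochberg adjustment over all and a threshold of 0.05. Lists count each gene by its brightest tested probe set. The p-values rest on a variance model over 2 arrays per group: an exact permutation test cannot go below 0.333. The fit was also run on data simulated from its own variance estimates, without differences between arrays. That run cannot show how the fit behaves on these arrays.

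Members and lists were chosen with earlier results of these data known. All member probe sets were eligible to be named, and of every other list the 4 tested genes with the smallest p. Alternatives changed scaling, pseudocount, filter, variance model, replicate block, probe set choice and the arrays included.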

Additional observations from a re-analysis of the deposited data

How the results depend on the processing

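Of 409 member log2 changes under 16 alternatives, 364 kept their direction and side of the threshold, 44 changed sign, and 1 passed, Bcl2 1443837_x_at without hypomorph replicate 2 (range -1.75 to -0.30 when 1 array was left out). Otherwise 0 member probe sets were called under any alternative (0 to 1 when leaving out 1 array), and 0 genes of the other family and pathway lists. Under quantile normalization, the signs turned for Bad 1416582_a_at (-0.08), Bcl2 1457687_at (-0.11), Bcl2l1 1420888_at (-0.01), Bcl2l11 1435448_at (-0.03), and Mcl1 1437527_x_at (-0.06), 1456243_x_at (-0.17) and 1456381_x_at (-0.06). With arrays centred on the tested probe sets, they turned for Bad 1416582_a_at (-0.06), Bcl2 1457687_at (-0.06), and Mcl1 1437527_x_at (-0.09), 1456243_x_at (-0.15) and 1456381_x_at (-0.04). With a common trimmed mean, they turned for Bad 1416582_a_at (-0.08), Bcl2 1457687_at (-0.09), and Mcl1 1416880_at (0 after rounding), 1437527_x_at (-0.13), 1456243_x_at (-0.19) and 1456381_x_at (-0.08). With cyclic loess, they turned for Bad 1416582_a_at (-0.09), Bcl2 1437122_at (0 after rounding) and 1457687_at (-0.11), Bcl2l11 1435448_at (0 after rounding), and Mcl1 1437527_x_at (-0.10), 1456243_x_at (-0.16) and 1456381_x_at (-0.06). Without centring, they turned for Bcl2 1422938_at (0.25) and 1440770_at (0.19) and Bcl2l1 1426191_a_at (0.32), which was 0.02 with a pseudocount at the 25th percentile. Mcl1 1456243_x_at was at 0 after rounding without a pseudocount. When 1 array was left out in turn, the range crossed 0 for Bad 1416582_a_at (-0.01 to 0.35), Bcl2 1422938_at (-0.27 to 0.21), 1437122_at (-0.04 to 0.55), 1440770_at (-0.49 to 0.21) and 1457687_at (-0.07 to 0.40), Bcl2l1 1426191_a_at (-0.04 to 0.06), Bid 1447873_x_at (-0.12 to 0.56), and Mcl1 1437527_x_at (-0.04 to 0.30) and 1456243_x_at (-0.09 to 0.23). The median tested gene changed by 0.02 under quantile normalization and cyclic loess, 0.04 when centred on the tested probe sets, 0.01 with the trimmed mean and 0.54 without centring, which by construction moves all changes together. Of the 8 member genes, 3 lay above that median under quantile normalization, under cyclic loess and without hypomorph replicate 1 (3 to 5 when leaving out 1 array). The members' median relative to it was -0.03 under quantile normalization, -0.01 under cyclic loess, 0.03 with the larger pseudocount, 0.09 without a filter, -0.01 with a filter at the 75th percentile, 0.09 with all probe sets of a gene averaged, and -0.01 to 0.07 when leaving out 1 array. Over the whole table, 14 probe sets were called (11 higher, 3 lower), against 4 under quantile normalization, 7 centred on the tested probe sets (4 higher, 3 lower), 5 with the trimmed mean, 84 without centring (73 higher, 11 lower), 5 with cyclic loess, 4 without a filter, 65 with the robust variance model and 8 to 162 when leaving out 1 array (162 without hypomorph replicate 1, 58 without hypomorph replicate 2, 22 without control replicate 2, 8 without control replicate 1). Without a variance trend 0 were called in limma and 2492 had an unadjusted p under 0.05. With the replicate number as a block 9 were called. The labels give no pairing, and same-numbered arrays deviated together at a correlation of 0.0819, so the numbers are not read as pairs. The 2 arrays per group limit the precision of every value, and the cause of these differences between settings was not tested.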
